A study of Mus musculus with 7 samples.

Results

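The genes described here are 45 genes of the secretory pathway and the unfolded protein response (UPR), taken by symbol from a table of 53465 mouse genes. They are 16 endoplasmic reticulum (ER) chaperones and folding enzymes, 11 subunits of the translocon and signal peptidase, 9 genes of COPII export and 9 UPR sensors and factors. Each symbol matched 1 row of the table, and all 45 passed the filter on low counts, which left 15645 genes for testing.

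The RNA came from EMT6 tumors, grown from a mouse mammary carcinoma cell line in the mammary fat pads of female Balb/c mice 6–8 weeks old. EMT6-P is 3 primary tumor samples from mice given an IgG isotype control antibody. EMT6-PTR is 3 primary tumor samples from mice given the anti-PD-L1 antibody clone 80, classed by the study as treatment resistant. Both antibodies were given at 250 μg per mouse every 3 days until institutional endpoint. A seventh library came from 1 metastasis under αPD-L1, for which the labels name no organ. All tumors derive from 1 cell line, and the labels name no engineered allele. The labels call the samples replicates without naming the animals, so p-values measure the spread between these tumors only.

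Proteins destined for secretion enter the ER through the Sec61 channel, lose their signal peptide to the signal peptidase complex, are folded by chaperones and disulfide isomerases, and leave in COPII-coated vesicles. When unfolded proteins accumulate, the sensors IRE1 (Ern1), PERK (Eif2ak3) and ATF6 start the UPR. XBP1 and ATF6 then raise chaperone and export genes, while PERK acts through ATF4, CHOP (Ddit3) and TRIB3. Tumor cells and collagen-producing fibroblasts both lean on this machinery.

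Total estimated counts ran from 20430110 to 25213472 per library. EMT6-PTR 3 stood apart from the other primary tumors: its 9 fibroblast markers summed to 10560 CPM against 701 to 1611 in the other 5, its 6 keratin-positive carcinoma markers to 597 against 2109 to 2349, and its 6 proliferation markers to 110 against 744 to 897. The metastasis held 8632 CPM of 7 lung epithelium markers, against 4.25 to 27.1 in the primary tumors. EMT6-PTR 1 held 3540 CPM of 6 skeletal muscle markers, against 3.83 to 583 in the other primary tumors. EMT6-PTR 2 gave 13.8% of its counts to the locus CT010467.1, while the others gave 0.433% to 1.35%. CPM values are estimated counts brought to a common library size by upper quartiles, and log2 CPM adds a prior count of 2. In whole tumors, fewer cells of a type and less RNA per cell cannot be told apart.

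The best known control letters of UPR genes are the ER stress response elements, through which NF-Y together with ATF6 or XBP1 acts. The promoter stretches that hold them are shown because their genes took different levels in EMT6-PTR 3, from below 50% of the EMT6-P mean for Hspa5, Calr and Hsp90b1 to above that mean for Dnajc3 and Herpud1. RefSeq promoters (250 bases before to 50 after a start, GRCm38.p6) were at hand for 37 of the 45 genes. They were not at hand for Hyou1, Spcs3, Creb3l1, Sec61a1, Ssr2, Sec11c, Atf6 and Manf. The letters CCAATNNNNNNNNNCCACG (ERSE), searched on both strands, occurred in 7 of the 37 (18.9%) and in 0.137% of 27025 symbols with a promoter. ATTGGNCCACG (ERSE-II) occurred in Herpud1 and Dnajb11, against 0.0444% of all symbols. Both elements hold the letters CCACG and CCAAT, the latter reversed in ERSE-II. The UPR element letters TGACGTG occurred in Hspa5, Mia3, Sec23a and Sec24d (10.8% of the 37, 2.22% of all), and the ATF4 and CHOP letters TGATGNAA in Herpud1 and Trib3 (5.41% and 4.51%). Each stretch reads 5′ to 3′ along its gene's own strand, with the fixed letters in capitals. In Calr, Creld2 and Hsp90b1 the element lies on the opposite strand and reads reversed. The elements are known from UPR genes and the members were listed as such, so these shares describe the list and are no finding of these data. A match describes the letters and does not show that a factor binds.
Hspa5 (BiP), chr2:34772000-34772068, + strand, first capital 65 bases before the start: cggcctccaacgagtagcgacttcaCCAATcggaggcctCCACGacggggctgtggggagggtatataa
Calr (calreticulin), chr8:84847050-84847118, - strand, 162 bases before: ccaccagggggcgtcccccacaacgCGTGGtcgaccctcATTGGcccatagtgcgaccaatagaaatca
Hsp90b1 (GRP94), chr10:86705508-86705576, - strand, 107 bases before (a second copy lies 212 bases before): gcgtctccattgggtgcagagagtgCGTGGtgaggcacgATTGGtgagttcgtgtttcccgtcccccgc
Pdia6, chr12:17266466-17266534, + strand, 98 bases before: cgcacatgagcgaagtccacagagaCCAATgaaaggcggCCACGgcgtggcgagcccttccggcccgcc
Canx (calnexin), chr11:50325775-50325843, - strand, 145 bases before: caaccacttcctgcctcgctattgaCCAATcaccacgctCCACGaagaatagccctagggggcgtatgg
Creld2, chr15:88819495-88819563, + strand, 126 bases before: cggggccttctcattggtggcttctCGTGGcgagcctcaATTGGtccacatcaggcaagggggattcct
Dnajc3 (p58IPK), chr14:118937802-118937870, + strand, 105 bases before: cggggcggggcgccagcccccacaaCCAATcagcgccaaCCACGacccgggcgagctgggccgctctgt
Herpud1 (ERSE-II), chr8:94386352-94386412, + strand, 52 bases before: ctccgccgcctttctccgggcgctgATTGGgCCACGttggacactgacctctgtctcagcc

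No member passed an adjusted p of 0.05 between EMT6-PTR and EMT6-P tumors in edgeR's quasi-likelihood test, where 0.0% of all tested genes did. At an unadjusted p under 0.05, 8 of the 45 were lower in EMT6-PTR (background 5.57% of tested genes) and 0 were higher (background 5.84%). They were Manf, Sdf2l1 and Creld2 among the chaperones, and Sec61b, Ssr2, Spcs3, Sec11a and Sec11c in the translocon and signal peptidase. The log2 fold change was below 0 for 39 of 45 members, against 47.7% of all tested genes, with a median of −0.18 against 0.03. In 13 members the 3 EMT6-PTR values lay below all 3 EMT6-P values (background 11.8%), and in 0 they lay above (background 9.52%). The count of 8 became 5 when any one EMT6-P tumor was left out and 12 without EMT6-PTR 3. Limma-voom gave 9 lower members (background 6.16%) and 0 higher (background 4.21%) at an unadjusted p under 0.05, and called 0. DESeq2 called 1 member lower, Sec11c, at an adjusted p of 0.0185 (background 0.914%), and 0 higher (background 0.882%). The adjusted p of Sec11c in the edgeR and limma-voom fits ran from 0.125 to 0.865.

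**Figure D1:**
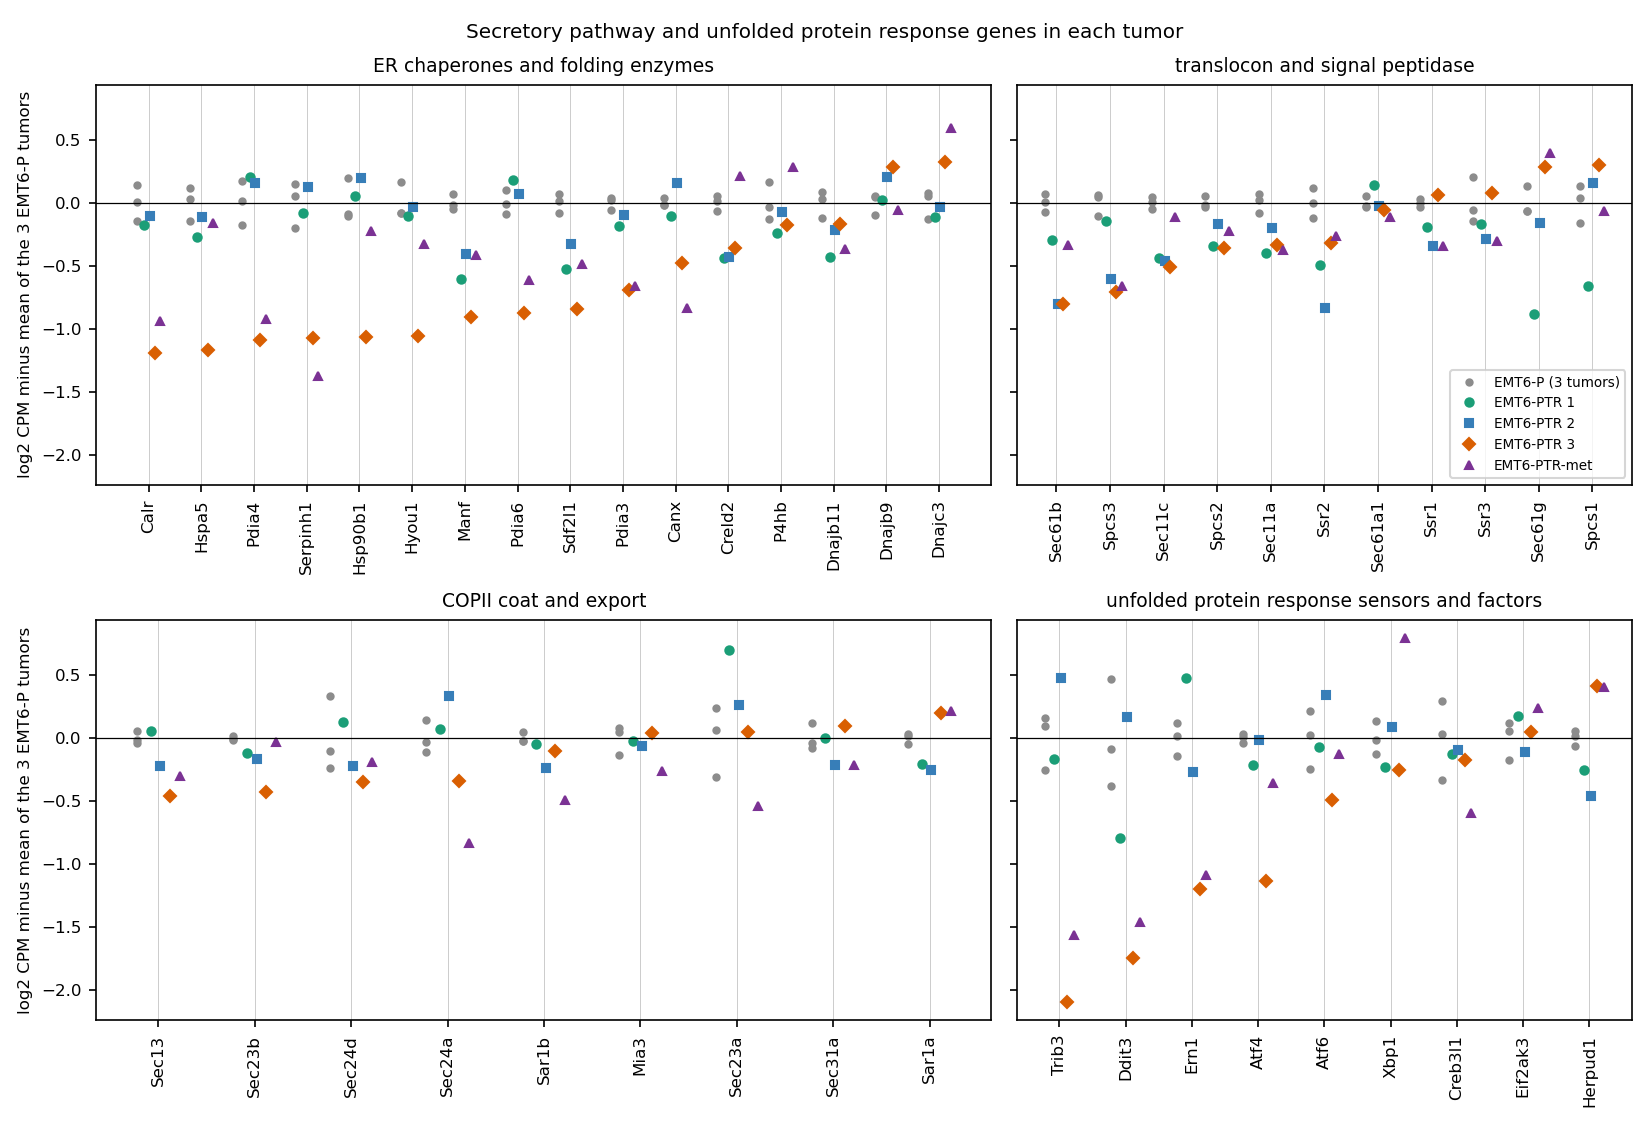
Log2 CPM of each of the 45 genes minus the mean of the 3 EMT6-P tumors, in 4 panels by role; grey circles are the EMT6-P tumors, colored symbols the 3 EMT6-PTR tumors and the metastasis. EMT6-PTR 3 (orange diamonds) sits more than 1 log2 unit below EMT6-P for 6 chaperones and for Trib3, Ddit3, Ern1 and Atf4, while the translocon panel shows smaller differences in all 3 EMT6-PTR tumors.

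By tumor, 27 members were below all EMT6-P values in EMT6-PTR 1 (background 32.5%), 21 in EMT6-PTR 2 (background 38.1%) and 32 in EMT6-PTR 3 (background 42.7%). Above all EMT6-P values were 7 (background 32.6%), 8 (background 33.8%) and 7 members (background 39.8%). EMT6-PTR 3 was the lowest EMT6-PTR tumor for 28 members (background 42.1%), among them 11 of 16 chaperones and 7 of 9 UPR sensors and factors, but 5 of 11 translocon and signal peptidase genes. The 4 roles were set apart further by the size of the difference in each tumor. Among the chaperones, the median difference from the EMT6-P mean was −0.14 in EMT6-PTR 1, −0.06 in EMT6-PTR 2 and −0.86 in EMT6-PTR 3 (log2 CPM). Translocon and signal peptidase genes sat at −0.35, −0.29 and −0.32, a like shift in every tumor. COPII genes were at 0.00, −0.21 and −0.10. The UPR sensors and factors were at −0.17, −0.02 and −0.49. Over all tested genes the medians were 0.00, −0.02 and −0.03.

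Sec61b encodes the beta subunit of the translocation channel. It measured 101, 92.1 and 97.2 CPM in the EMT6-P tumors, and 79.0, 55.5 and 55.2 CPM in the EMT6-PTR tumors. The groups did not overlap, and the EMT6-PTR mean was 65.3% of the EMT6-P mean (log2 fold change −0.62 ± 0.18 SE, n = 3 and 3, unadjusted p = 0.0114, adjusted p = 0.421, edgeR). Near-identical genes held an estimated count equal to 8.33% of that of Sec61b. The channel's large subunit gene, Sec61a1, measured 232, 245 and 231 CPM in EMT6-P and 261, 231 and 227 CPM in EMT6-PTR. These ranges overlapped, and the log2 fold change of Sec61a1 was 0.02 ± 0.13. Sec61g, the gamma subunit, could not be read on its own. It received only 438 counts over the 7 libraries, while 4 near-identical genes, chiefly Gm10177, received 21560. Sec61g and its copies together measured 155, 132 and 138 CPM in EMT6-P and 83.8, 118 and 158 CPM in EMT6-PTR, so the groups overlapped.

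Ssr1, Ssr2 and Ssr3 encode subunits of the translocon-associated protein complex. Ssr2 measured 169, 183 and 199 CPM in EMT6-P tumors and 130.2, 102 and 147 CPM in EMT6-PTR tumors, without overlap (log2 fold change −0.54 ± 0.17, unadjusted p = 0.0183, adjusted p = 0.424, edgeR). Its exons overlap those of Gm10704 on the opposite strand, which held an estimated 4824 counts beside 23979 for Ssr2 over all libraries. Ssr1 measured 215, 224 and 219 CPM against 191, 173 and 229 CPM (log2 fold change −0.15 ± 0.15). Ssr3 measured 475, 572 and 449.7 CPM against 441, 405 and 523 CPM (log2 fold change −0.13 ± 0.17). For both, EMT6-PTR 3 was slightly above the EMT6-P mean while EMT6-PTR 1 and 2 were below it. Ssr4, the remaining subunit, was no member and measured 136, 127 and 126 CPM against 90.9, 83.7 and 95.5 CPM (log2 fold change −0.53 ± 0.12, unadjusted p = 0.0041).

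Signal peptidase is built from a catalytic subunit, SEC11A or SEC11C, and the SPCS subunits. Sec11c measured 51.8, 49.7 and 53.3 CPM in EMT6-P and 38.0, 37.4 and 36.1 CPM in EMT6-PTR. The groups were far apart relative to their spread, with SDs of 1.82 and 0.97 CPM around means of 51.6 and 37.2 CPM (log2 fold change −0.47 ± 0.11, unadjusted p = 0.0047, adjusted p = 0.421, edgeR). Sec11a measured 73.4, 66.2 and 71.1 CPM against 53.2, 60.9 and 55.6 CPM (log2 fold change −0.31 ± 0.12, unadjusted p = 0.0378). The share of Sec11c in their summed CPM stayed between 38.1% and 42.9% in the 6 primary tumors. Spcs3 measured 156, 154 and 139 CPM against 136, 98.1 and 91.5 CPM (log2 fold change −0.47 ± 0.18, unadjusted p = 0.0401). EMT6-PTR 1 lay just under the lowest EMT6-P tumor for this gene, and the other EMT6-PTR tumors well below. Spcs2 did not overlap either (log2 fold change −0.29 ± 0.12, unadjusted p = 0.0503). Spcs1 did, with EMT6-PTR 1 at 83.4 CPM and EMT6-PTR 2 and 3 at 147 and 162 CPM beside 118 to 145 CPM in EMT6-P.

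Manf, Sdf2l1 and Creld2 encode small ER proteins known as targets of the UPR; MANF is a BiP cofactor that can also be secreted, and SDF2L1 assists BiP with its DNAJB partners. Manf measured 178, 175 and 189.9 CPM in EMT6-P, and 119, 136 and 96.2 CPM in EMT6-PTR. The EMT6-PTR mean was 64.6% of the EMT6-P mean, and with Ddit3 this was the lowest fitted log2 fold change of the members (−0.63 ± 0.16, unadjusted p = 0.0068, adjusted p = 0.421, edgeR). Sdf2l1 measured 40.1, 38.6 and 36.1 CPM against 26.5, 30.4 and 21.3 CPM (log2 fold change −0.55 ± 0.17, unadjusted p = 0.0138). Creld2 measured 53.7, 55.0 and 50.7 CPM against 39.2, 39.4 and 41.4 CPM (log2 fold change −0.41 ± 0.11, unadjusted p = 0.0094). In none of these did the groups overlap. Creld2 was almost level across the EMT6-PTR tumors, while Manf and Sdf2l1 were lowest in EMT6-PTR 3. Exons of Manf overlap those of 3 genes, among them Dcaf1 on the opposite strand and Rbm15b on the same strand. The 3 held an estimated 16084 counts over the 7 libraries, beside 22452 for Manf. Whether counting used strand is not stated, and strand would not separate Manf from Rbm15b.

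**Figure D2:**
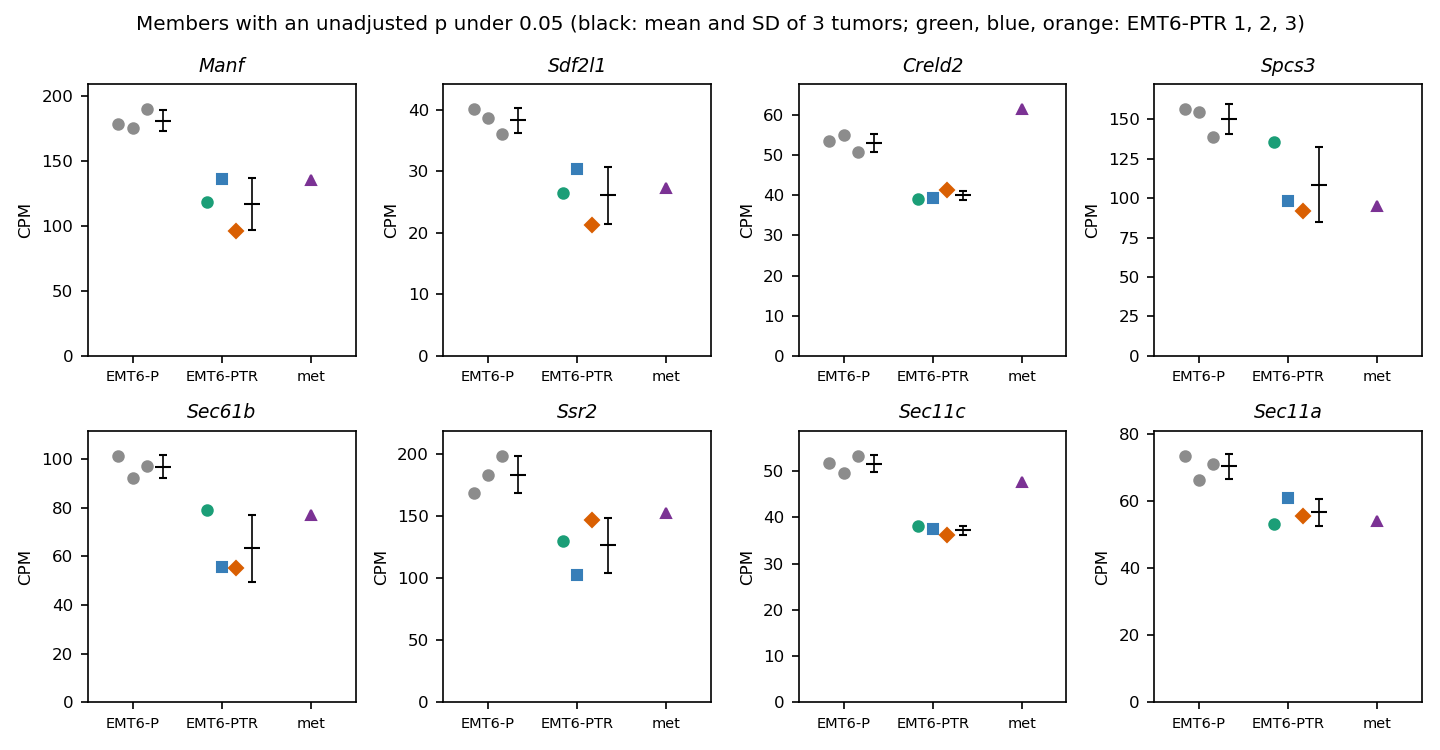
CPM in each tumor for the 8 genes with an unadjusted p under 0.05; grey circles are EMT6-P, colored symbols EMT6-PTR 1 to 3, the purple triangle is the metastasis, and black bars are the mean ± SD of 3 tumors. In all 8 panels every EMT6-PTR tumor lies below every EMT6-P tumor, while the metastasis is above EMT6-P for Creld2 alone.

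These differences moved with transcript length across the whole table. Lengths are medians over a gene's protein-coding transcripts in the GENCODE M21 basic annotation, which can take in short isoforms. The transcripts expressed in these tumors were not measured, so the length and the corrected value of a single gene are uncertain. Among 593 tested genes of up to 800 bases, the median log2 fold change was −0.30 and 26.8% were lower at an unadjusted p under 0.05. Among 1832 genes over 5000 bases, the median was 0.23 and 0.655% were lower. The shortest class sat at −0.35, −0.43 and −0.18 relative to EMT6-P in EMT6-PTR 1, 2 and 3, and at −0.09 in the metastasis. Of the 8 genes above, 5 were 1200 bases or shorter: Sec61b (564 bases), Sec11c (821), Ssr2 (840), Sec11a (999) and Sdf2l1 (1108). Creld2 (1366) and Manf (1604) were intermediate, and Spcs3 (3466) was long. Genes of like length had a median log2 fold change of −0.32 for Sec61b, −0.22 for Sec11c, −0.21 for Ssr2, −0.10 for Manf and 0.07 for Spcs3.

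When a trend on length was removed from each library, an alternative added after the data were seen, 2 of the 45 members kept an unadjusted p under 0.05 (background 2.81%), all lower, and 0 were higher (background 4.45%). The log2 fold change was below 0 for 34 of 45 members (background 45.5%), and in 9 the EMT6-PTR tumors all lay below the EMT6-P tumors (background 9.1%). The 2 were Manf (log2 fold change −0.49 ± 0.17, unadjusted p = 0.026) and Spcs3 (−0.51 ± 0.17, unadjusted p = 0.0224), each with an adjusted p of 0.656. Sec11c moved to −0.20 ± 0.13, Sec61b to −0.27 ± 0.21, Ssr2 to −0.28 ± 0.15 and Sec11a to −0.08 ± 0.13. Creld2 moved to −0.24 ± 0.11 (unadjusted p = 0.0676) and Sdf2l1 to −0.34 ± 0.19. The translocon and signal peptidase median went from −0.29 to −0.07, whereas that of the chaperones went from −0.27 to −0.21. What set the trend was not tested.

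**Figure D3:**
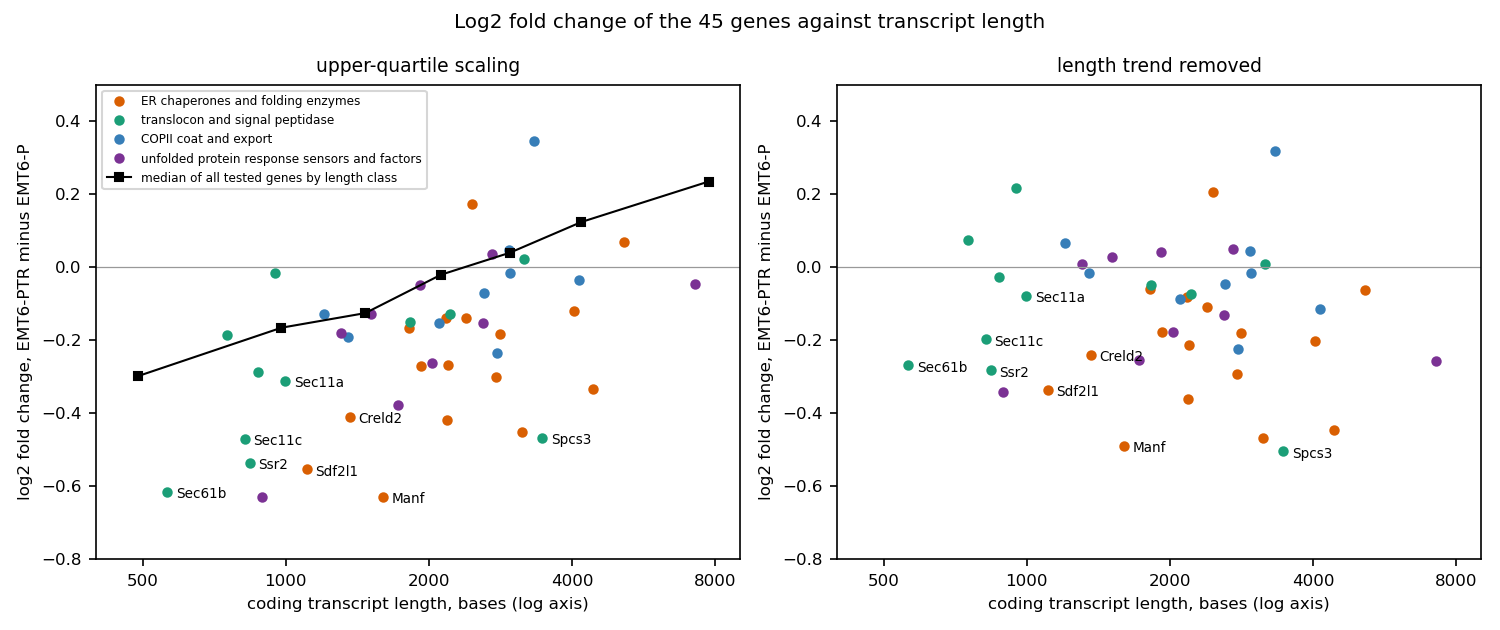
Log2 fold change (EMT6-PTR minus EMT6-P) of the 45 genes against coding transcript length in bases on a log axis, colored by role, before (left) and after (right) the length trend was removed; black squares are the medians of all tested genes in 7 length classes. The medians climb from −0.30 in the shortest class to 0.23 in the longest, and after removal Manf and Spcs3 remain among the lowest points.

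Several abundant chaperones, though not P4hb, showed another pattern, in which EMT6-PTR 3 differed from the other 5 primary tumors. In EMT6-P, P4hb led the set with a mean of 807 CPM per kilobase of transcript, followed by Calr at 471, Serpinh1 at 427, Hspa5 at 374 and Hsp90b1 at 355 CPM per kilobase. Hspa5 encodes BiP, the Hsp70 of the ER lumen, which also holds the UPR sensors inactive. It measured 1199, 1272 and 1061 CPM in EMT6-P, and 974, 1085 and 523 CPM in EMT6-PTR. EMT6-PTR 3 held 0.444 times the EMT6-P mean (a log2 difference of −1.17), while EMT6-PTR 2 lay inside the EMT6-P range (log2 fold change of the group −0.45 ± 0.29, unadjusted p = 0.162, edgeR).

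Hsp90b1, the ER paralog of HSP90, measured 938, 1142 and 928 CPM in EMT6-P and 1032, 1142 and 476 CPM in EMT6-PTR. EMT6-PTR 1 and 2 lay within the EMT6-P range and EMT6-PTR 3 far below it (log2 fold change −0.18 ± 0.33). Calr, a lectin chaperone, measured 926, 1129.6 and 1029 CPM against 908, 951 and 448 CPM. Hyou1, the nucleotide exchange factor of BiP, measured 128, 152 and 128 CPM against 126, 133 and 65.0 CPM. Pdia4, a disulfide isomerase, measured 119, 152 and 136 CPM against 155, 150.2 and 63.2 CPM. For these genes too, EMT6-PTR 3 alone was far from the other 5 primary tumors. Pdia6 measured 425, 487 and 449 CPM against 514, 474 and 247 CPM. Pdia3, the partner isomerase of calreticulin and calnexin, measured 832, 879 and 891 CPM against 763, 810.3 and 536 CPM. Canx measured 454, 473 and 454 CPM against 428, 513 and 329.9 CPM. The last 3 were less low in EMT6-PTR 3, with log2 differences of −0.88, −0.69 and −0.48.

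Not every chaperone was low in EMT6-PTR 3. P4hb, a disulfide isomerase and the beta subunit of collagen prolyl 4-hydroxylase, measured 1294 CPM there, against 1234 and 1385 CPM in EMT6-PTR 1 and 2 and 1335 to 1635 CPM in EMT6-P. The J-domain cochaperones Dnajb9 and Dnajc3 were above every EMT6-P tumor in EMT6-PTR 3, at 42.0 and 125 CPM beside 32.2 to 35.8 and 90.9 to 105 CPM. Dnajb11, another cochaperone of BiP, was lower in every EMT6-PTR tumor (115, 134 and 138 CPM) than in any EMT6-P tumor (143, 165 and 159 CPM), and EMT6-PTR 3 was the highest of the EMT6-PTR tumors. Of the 7 genes whose promoters held ERSE letters, the log2 difference in EMT6-PTR 3 was −1.19 for Calr, −1.17 for Hspa5, −1.07 for Hsp90b1, −0.88 for Pdia6, −0.48 for Canx, −0.36 for Creld2 and 0.32 for Dnajc3. Pdia4 and Serpinh1, at −1.09 and −1.08, have no such letters in their windows.

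In all, 10 members were at or below 50% of the EMT6-P mean in EMT6-PTR 3 (background 14.7% of tested genes), of which 6 were chaperones and 4 were Atf4, Ddit3, Ern1 and Trib3. The summed CPM of the 16 chaperones was 7811, 8859 and 8004 in EMT6-P, and 7439, 8133 and 4888 in EMT6-PTR. With the length trend removed, the chaperone median in EMT6-PTR 3 was −0.75 and those in EMT6-PTR 1 and 2 were −0.22 and −0.07. In that library 7 of 9 fibroblast markers lay above all EMT6-P tumors and Thy1 and Dpt below, 3 of 6 keratin-positive carcinoma markers lay below and none above, and 6 of 6 proliferation markers lay below. No marker of these 3 lists was at 0 in any library. The part of this makeup in the chaperone levels was not tested.

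Without EMT6-PTR 3, 12 members had an unadjusted p under 0.05, all lower (background 11.5%, and 8.8% higher), and the log2 fold changes of Hsp90b1 and Serpinh1 turned to 0.12 and 0.013. Those of Atf6 and Ern1 turned to 0.14 and 0.15. The 12 were Manf, Sdf2l1, Creld2 and Dnajb11 of the chaperones, Sec11c, Sec11a, Sec61b, Ssr1, Ssr2 and Spcs2 of the translocon and signal peptidase, Sar1a and Herpud1.

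Atf4 encodes the transcription factor translated when PERK or a related kinase phosphorylates eIF2α. It measured 568, 577 and 551 CPM in EMT6-P, and 488, 559 and 258 CPM in EMT6-PTR (log2 fold change −0.38 ± 0.29, unadjusted p = 0.23, edgeR). The EMT6-P tumors were tightly grouped, EMT6-PTR 2 lay among them and EMT6-PTR 3 held 0.456 times their mean. Ddit3, encoding the factor CHOP, measured 74.8, 110.4 and 61.1 CPM against 46.0, 89.5 and 23.8 CPM (log2 fold change −0.63 ± 0.48), with overlapping groups. Exons of Ddit3 overlap those of 3 genes: Mars and Gm4189 on the opposite strand, and a same-strand entry also named Ddit3. Together these held an estimated 12979 counts over the 7 libraries, beside 9186 for Ddit3, so its values are uncertain. Trib3, a pseudokinase that feeds back on ATF4 and CHOP, measured 106, 101 and 79.4 CPM against 84.4, 132 and 22.1 CPM (log2 fold change −0.26 ± 0.57). EMT6-PTR 2 was the highest and EMT6-PTR 3 the lowest of the 6 primary tumors for Trib3.

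Among 19 listed ATF4 target genes outside the set, such as Asns, Chac1 and Psat1, the median log2 fold change was −0.26. At an unadjusted p of 0.05, 0 of them passed (backgrounds 5.57% lower and 5.84% higher). In EMT6-PTR 3, 17 of the 19 lay below all EMT6-P tumors (background 42.7%), with a median log2 difference of −1.44, against −0.03 and 0.13 in EMT6-PTR 1 and 2. Asns, asparagine synthetase, measured 166, 148 and 131 CPM in EMT6-P and 178, 155 and 24.0 CPM in EMT6-PTR. The ones with the smallest unadjusted p were Phgdh of serine synthesis (235, 217 and 170.2 CPM against 173, 204 and 141 CPM) and Cth of cysteine synthesis (3.41, 1.54 and 2.22 CPM against 2.66, 11.9 and 1.09 CPM), both with overlapping groups.

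The 3 sensors were not called in any fit. Ern1 measured 49.5, 53.3 and 44.4 CPM in EMT6-P and 68.0, 40.7 and 21.2 CPM in EMT6-PTR (log2 fold change −0.18 ± 0.39), with EMT6-PTR 1 above and EMT6-PTR 2 and 3 below the EMT6-P tumors. Eif2ak3 measured 25.7, 31.4 and 30.1 CPM against 32.7, 26.8 and 29.9 CPM (log2 fold change 0.04 ± 0.15), with overlapping groups. Atf6 measured 86.7, 98.6 and 71.9 CPM against 80.8, 108 and 60.4 CPM (log2 fold change −0.05 ± 0.24), also overlapping. Xbp1, whose mRNA is spliced by IRE1, measured 126, 114 and 105 CPM against 98.0, 122 and 96.4 CPM (log2 fold change −0.13 ± 0.15). Gene counts do not separate its spliced form. Herpud1, an ER-associated degradation factor with ERSE-II letters in its promoter, was lower in EMT6-PTR 1 and 2 (86.0 and 74.9 CPM) and higher in EMT6-PTR 3 (137 CPM) than all EMT6-P tumors (98.2 to 107 CPM). Creb3l1, an ATF6-like factor linked to collagen secretion, measured 55.0, 71.0 and 85.1 CPM against 63.6, 65.0 and 61.3 CPM, inside the EMT6-P range.

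**Figure D4:**
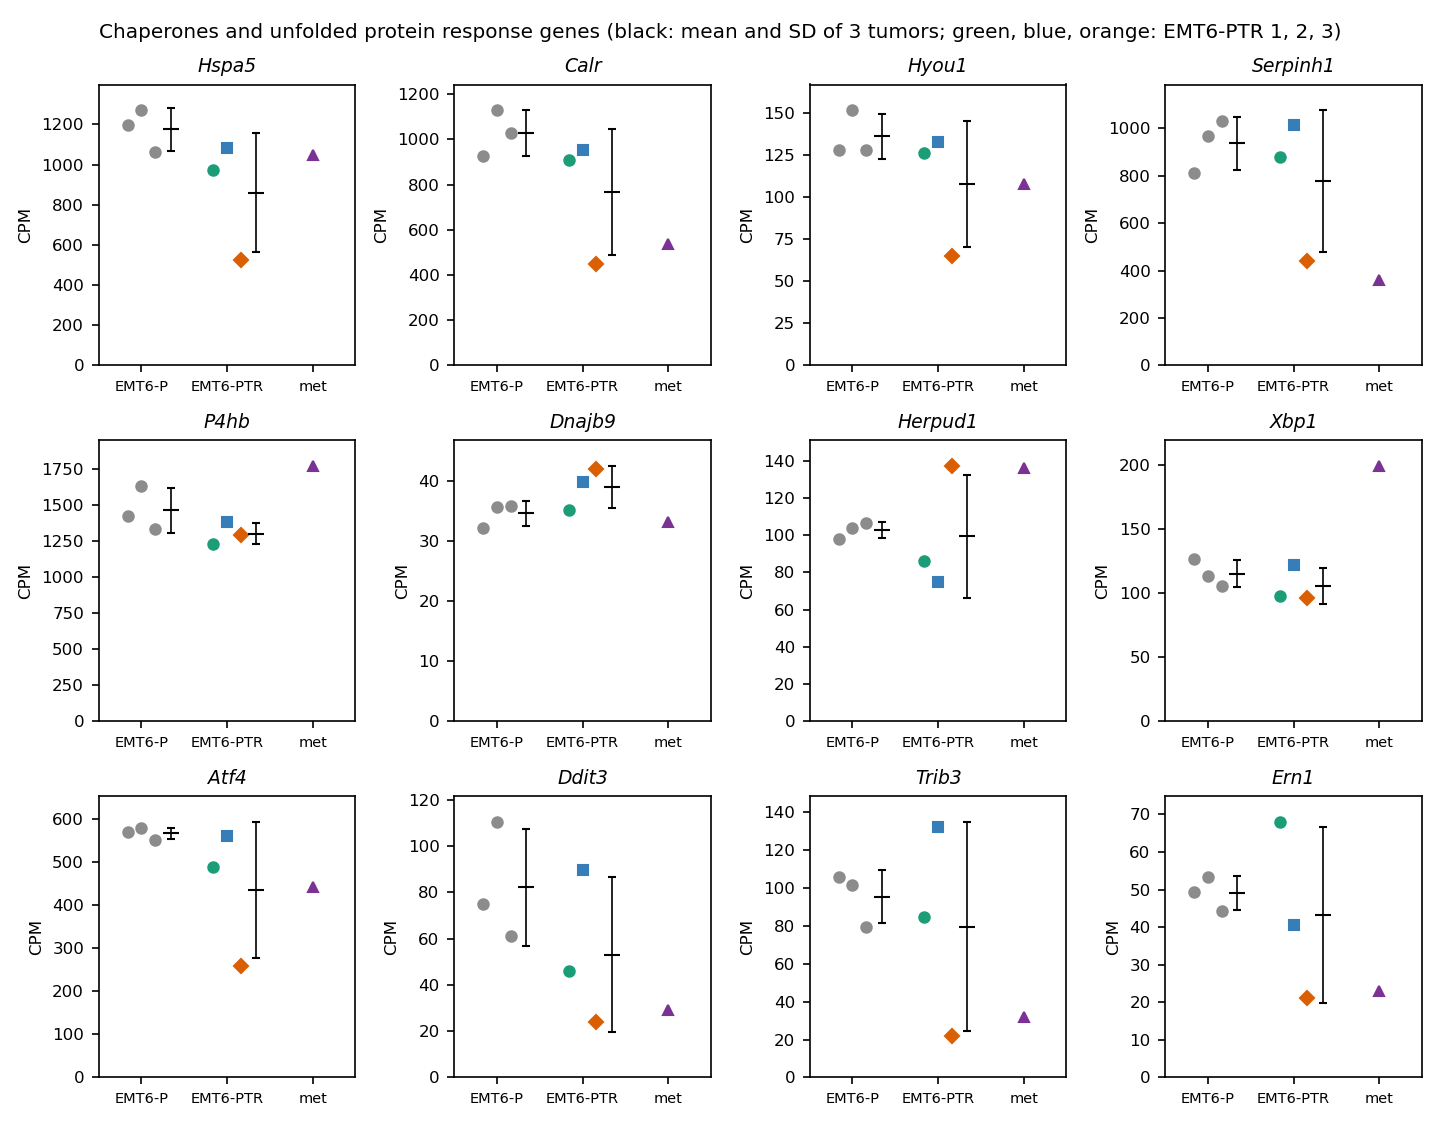
CPM in each tumor for 12 chaperone and UPR genes; grey circles are EMT6-P, colored symbols EMT6-PTR 1 to 3, the purple triangle is the metastasis, and black bars are the mean ± SD of 3 tumors. EMT6-PTR 3 (orange) is the lowest primary tumor for Hspa5, Calr, Hyou1, Serpinh1, Atf4, Ddit3, Trib3 and Ern1, but the highest for Dnajb9 and Herpud1. It is also the lowest for Xbp1, by a small step (96.4 CPM, against 98.0 CPM in EMT6-PTR 1).

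Serpinh1 encodes HSP47, the collagen-specific chaperone, and its cargo was measured beside it. Serpinh1 stood at 813, 966 and 1031 CPM in EMT6-P, and at 878, 1013 and 442 CPM in EMT6-PTR (log2 fold change −0.27 ± 0.32, unadjusted p = 0.426, edgeR). EMT6-PTR 1 and 2 lay within the EMT6-P range and EMT6-PTR 3 was below it. The 7 fibrillar collagen chains summed to 6264, 6806 and 8261 CPM in EMT6-P, and to 7450, 10010 and 17820 CPM in EMT6-PTR. Per 1000 CPM of these collagens, Serpinh1 measured 129.8, 142 and 125 CPM in EMT6-P, 118, 101 and 24.8 CPM in EMT6-PTR, and 28.9 CPM in the metastasis. The ratio was thus lowest in EMT6-PTR 3 and the metastasis, the libraries in which Col3a1 was most abundant (9088 and 6617 CPM, against 734 to 1998 CPM elsewhere). Col1a1 measured 2755 CPM in EMT6-PTR 3, inside its EMT6-P range of 2427 to 3192 CPM. Of the 7 chains, 3 lay above and 3 below all EMT6-P tumors in EMT6-PTR 3, so the sum does not describe each chain. Those below were Col5a1 (315 CPM beside 354 to 485 CPM), Col5a2 (48.4 beside 223 to 296 CPM) and Col5a3 (9.06 beside 121.5 to 167 CPM). In the metastasis 3 chains lay above and 4 below all EMT6-P tumors. The collagen genes with the smallest unadjusted p were Col11a1 (6.58, 12.1 and 32.5 CPM against 20.6, 196 and 765 CPM) and Col3a1, with log2 fold changes of 4.26 ± 1.31 and 2.15 ± 0.81 (unadjusted p = 0.0156 and 0.0355, adjusted p = 0.421 and 0.431, edgeR). The median over the 7 chains was 0.19.

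**Figure D5:**
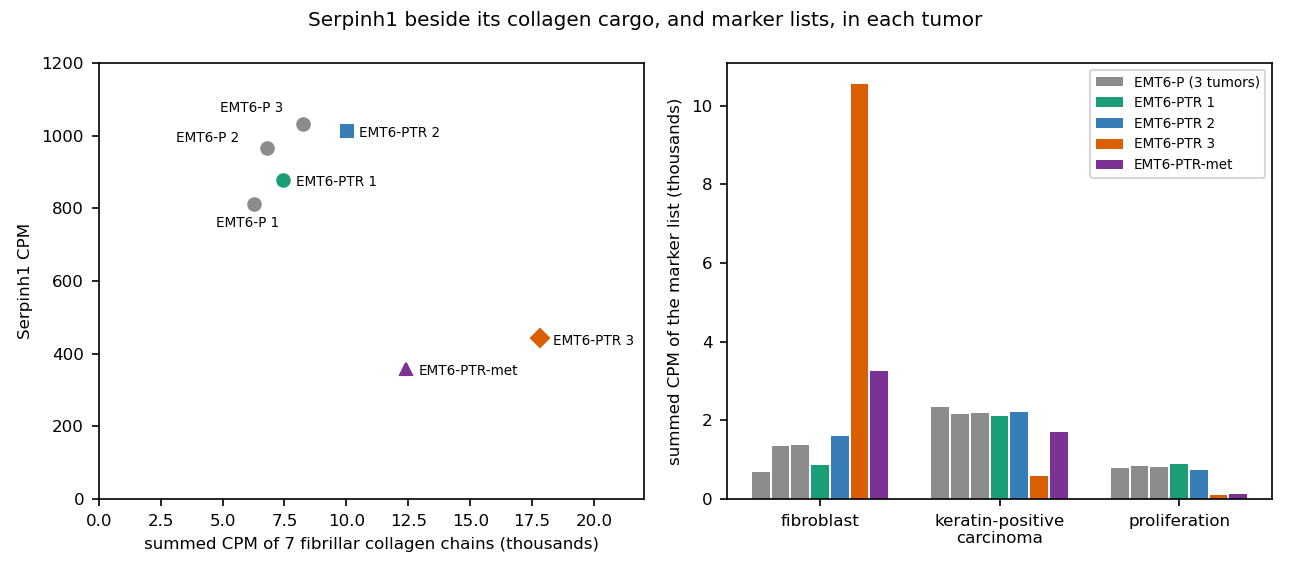
Left, Serpinh1 CPM against the summed CPM of 7 fibrillar collagen chains in each of the 7 libraries; right, summed CPM of fibroblast, keratin-positive carcinoma and proliferation markers as bars from 0; the collagen and marker axes are in units of 1000 CPM. EMT6-PTR 3 and the metastasis combine 17820 and 12420 CPM of collagens with 442 and 359 CPM of Serpinh1, and EMT6-PTR 3 has 10560 CPM of fibroblast markers.

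COPII genes had the smallest shift of the 4 roles, with a median log2 fold change of −0.07 over 9 genes. At an unadjusted p under 0.05 there were 0 genes (backgrounds 5.57% lower and 5.84% higher). SEC23 and SEC24 form the inner coat, SEC13 and SEC31A the outer, and the GTPase SAR1 starts assembly. Sec23a measured 52.7, 77.3 and 68.4 CPM in EMT6-P and 106, 78.1 and 67.7 CPM in EMT6-PTR (log2 fold change 0.34 ± 0.22, unadjusted p = 0.17), with EMT6-PTR 1 the highest tumor. Its paralog Sec23b measured 59.5, 60.6 and 59.2 CPM against 55.0, 53.1 and 44.3 CPM without overlap (log2 fold change −0.23 ± 0.13, unadjusted p = 0.117). As a share of the summed CPM of both, Sec23a made up 47.0%, 56.1% and 53.6% in EMT6-P, and 65.9%, 59.5% and 60.5% in EMT6-PTR. The groups did not overlap in this share, which was 43.5% in the metastasis. They did overlap in the other shares computed: Sec11c with Sec11a, Sar1a with Sar1b, Sec24a with Sec24d, Ddit3 with Atf4 and Serpinh1 with P4hb. No background was computed for such shares. Sec13 measured 109, 117 and 111 CPM against 117, 96.7 and 81.8 CPM (log2 fold change −0.19 ± 0.16). Sar1b was lower in every EMT6-PTR tumor by a small step, 50.5, 48.1 and 48.2 CPM against 47.3, 41.4 and 45.6 CPM. Sec24a, which starts next to Sar1b on chromosome 11 (51763634 and 51763687 in GRCm38, opposite strands), measured 29.9, 28.3 and 33.7 CPM against 32.2, 38.6 and 24.1 CPM, with the highest and the lowest value both in EMT6-PTR. The other COPII members overlapped as well, with log2 fold changes of −0.03 ± 0.14 for Sec31a, −0.15 ± 0.21 for Sec24d, −0.07 ± 0.16 for Sar1a and −0.02 ± 0.12 for Mia3, which encodes the collagen export receptor TANGO1. Sar1a was below all EMT6-P tumors in EMT6-PTR 1 and 2 (176 and 170.2 CPM beside 196 to 208 CPM) and above them in EMT6-PTR 3 (232 CPM).

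Neighbouring steps of the pathway were read from the same fit. Of 111 tested genes in 8 further lists, 0 passed an adjusted p of 0.05 in edgeR, 12 were lower (background 5.57%) and 3 higher (background 5.84%) at an unadjusted p under 0.05, and DESeq2 called 5, all lower (Dad1, Krtcap2, Tmem258, Ost4 and Ssr4; background 0.914%). The counts rested on single tumors, 7 lower without EMT6-P 1 or EMT6-P 2 and 26 lower without EMT6-PTR 3 (background 11.5%), and 0 higher without any one EMT6-P tumor and 6 higher without EMT6-PTR 3 (background 8.8%). Oligosaccharyltransferase, which glycosylates proteins at the translocon, had 5 of 12 genes lower at an unadjusted p under 0.05 (background 5.57%). Its median log2 fold change was −0.30. Its small subunit gene Krtcap2 measured 115, 136 and 120.5 CPM in EMT6-P and 84.9, 67.8 and 69.3 CPM in EMT6-PTR (log2 fold change −0.74 ± 0.15, unadjusted p = 0.00185). Tmem258 measured 73.6, 69.1 and 79.6 CPM against 51.1, 38.2 and 39.2 CPM (log2 fold change −0.79 ± 0.16, unadjusted p = 0.00187). Both transcripts are short, 877 and 527 bases, and with the length trend removed their log2 fold changes were −0.49 ± 0.17 and −0.44 ± 0.19.

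Signal recognition and further translocation genes had a median log2 fold change of −0.22, with 2 of 13 lower at an unadjusted p under 0.05 (background 5.57%). They were Ssr4 and Srp14 (85.7, 89.9 and 83.3 CPM against 65.1, 66.6 and 57.2 CPM, log2 fold change −0.46 ± 0.12). Further folding genes had a median of −0.06 with 3 of 17 lower (background 5.57%). Among them were the prolyl isomerase Fkbp2 (33.0, 34.9 and 40.5 CPM against 25.6, 25.1 and 20.3 CPM, −0.61 ± 0.16) and the disulfide isomerase Txndc5 (239.8, 236 and 231 CPM against 199, 191 and 164 CPM, −0.35 ± 0.13). These 4 genes, picked by smallest unadjusted p, were lower in every EMT6-PTR tumor than in any EMT6-P tumor (background 11.8%). Ssr4, Srp14 and Fkbp2 are short (783, 693 and 664 bases), and with the length trend removed their log2 fold changes were −0.25 ± 0.11, −0.15 ± 0.16 and −0.29 ± 0.20 (unadjusted p = 0.0579, 0.387 and 0.191), while that of Txndc5 (2619 bases) was −0.33 ± 0.12 (unadjusted p = 0.032).

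COPI and retrieval genes had a median of −0.11 with 1 of 11 lower, near the background of 5.57%. It was the KDEL receptor Kdelr2 (183, 177 and 180.1 CPM against 145, 137 and 108 CPM, −0.47 ± 0.15). Next came the coatomer gene Cope (119, 122 and 109 CPM against 91.6, 79.0 and 104 CPM, unadjusted p = 0.0515). Further COPII genes had a median of 0.03 with 1 of 12 lower, again near that background. It was the cargo receptor Tmed2 (388, 393 and 395 CPM against 332, 281 and 322 CPM, −0.33 ± 0.13), followed by Tmed9 (159.6, 159 and 140.2 CPM against 119.7, 131 and 131 CPM, unadjusted p = 0.0748). The groups did not overlap in any of these 4 genes, picked by smallest unadjusted p (background 11.8% of tested genes).

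ER-associated degradation (median −0.04) had 2 of 15 genes higher at an unadjusted p under 0.05, and further UPR regulators (median 0.04) had 1 of 12 (background 5.84%). Over all 8 lists 3 of 111 genes were higher, no more than that background. The other lists also held genes with a positive log2 fold change. The genes higher at an unadjusted p under 0.05 (background 5.84%) were Sel1l (0.55 ± 0.20) and Edem3 (0.40 ± 0.16) of ER-associated degradation, and the UPR regulator Crebrf (0.66 ± 0.25). Sel1l, the scaffold of the HRD1 ubiquitin ligase, measured 68.7, 76.1 and 76.4 CPM in EMT6-P and 90.2, 93.6 and 141 CPM in EMT6-PTR. Edem3, a mannosidase-like factor, measured 36.5, 43.8 and 41.7 CPM against 45.9, 54.3 and 61.3 CPM. Crebrf measured 23.8, 29.1 and 26.2 CPM against 30.0, 37.4 and 57.2 CPM, and Creb3, next in that list, 49.9, 48.1 and 51.1 CPM against 44.6, 36.7 and 43.3 CPM. For the first 3 every EMT6-PTR tumor was above every EMT6-P tumor (background 9.52%), and for Creb3 every one was below (background 11.8%). Sel1l transcripts are long (6150 bases), and with the length trend removed the log2 fold change of Sel1l was 0.40 ± 0.22 (unadjusted p = 0.121). Those of Edem3 and Crebrf were then 0.39 ± 0.17 and 0.53 ± 0.27 (unadjusted p = 0.0523 and 0.0916). After that removal, Dad1, Krtcap2, Txndc5 and Kdelr2 were the 4 lower genes of the 111 at an unadjusted p under 0.05 (background 2.81%), and the cargo receptor Tmed10 of the further COPII list was the 1 higher gene (0.41 ± 0.14, background 4.45%).

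The single metastasis has no replicate and was set beside the EMT6-PTR primary tumors without a test. Relative to the mean of their log2 CPM its member median was −0.07, with 1 member at least 2-fold lower (background 8.58%) and 0 at least 2-fold higher (background 12.4%). That member was Serpinh1, at 359 CPM, and the count was 7 when EMT6-PTR 3 was left out of the mean and 0 when EMT6-PTR 1 or 2 was. Against the mean of linear CPM, Serpinh1 stood at 0.462 and Trib3 at 0.402 times the EMT6-PTR level. The metastasis lay below the EMT6-PTR range for 11 members (background 29.0%) and above it for 10 (background 25.8%), and below all 6 primary tumors for 10 (background 24.1%) and above them for 7 (background 20.9%). Xbp1 showed the widest difference upward, 199 CPM against 96.4 to 122 CPM in EMT6-PTR and 105 to 126 CPM in EMT6-P. Creld2 (61.5 CPM), Dnajc3 (149.9 CPM), P4hb (1773 CPM), Sar1a (235 CPM) and Eif2ak3 (34.3 CPM) were also above all 6 primary tumors. So was Sec61g (3.72 CPM), whose reads fall mostly on its copies. Downward, Trib3 (32.0 CPM) lay between EMT6-PTR 3 and the other EMT6-PTR tumors. The COPII genes Sec23a (44.9 CPM), Sec24a (17.1 CPM), Sec31a, Sar1b and Mia3 lay below all 6 primary tumors, as did Serpinh1, Canx, Sec61a1, Ssr3 and Creb3l1. Calr, Pdia4 and Pdia6 were low in this library too, at 535, 70.9 and 296 CPM, whereas Hspa5 stood at 1049.5 CPM. Beside these values the metastasis carried the lung epithelium markers given above, 2980 CPM of neutrophil markers (25.1 to 58.5 in the primary tumors) and 118 CPM of proliferation markers. Endothelial markers summed to 846 CPM (127 to 175 in the primary tumors). Of 9 plasma cell markers, 7 lay above all EMT6-P tumors in the metastasis, with Igkc at 219 CPM (0.175 to 63.2 in the primary tumors), Ighm at 68.2, Jchain at 25.3 and Pou2af1 at 5.48 CPM. The summed plasma cell level was 799 CPM there beside 614 to 907 CPM in the primary tumors, most of it Sdc1 (472 CPM, against 599 to 850.0 CPM). The part of these cells in the differences was not tested.

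Spread was larger among EMT6-PTR tumors, for the members as for genes at large. Over the 45 members, log2 CPM had a median SD of 0.112 among EMT6-P tumors against 0.261 among EMT6-PTR tumors, both below the medians of 0.154 and 0.386 over all tested genes. The SD was larger in EMT6-PTR for 38 members, a share near the background of 83.0%. Translocon and signal peptidase genes were the steadiest at 0.077 against 0.205. The UPR sensors and factors were the least steady, at 0.153 against 0.457, with Trib3 spanning a 5.98-fold range among the EMT6-PTR tumors.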

How the data were processed

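Poly(A) RNA libraries (TruSeq Stranded mRNA) of 7 tumor samples were sequenced by the study. The deposited table holds expected counts, estimated per gene by the authors with RSEM 1.3.1 after alignment with STAR 2.6.0a to GRCm38 (names and versions from the submitters' processing notes); an estimated count shared between near-identical genes is split by the model, and the strand setting is not given in the sources used here. Symbols were matched through the GENCODE M21 annotation for 53274 of 53465 identifiers, positions (GRCm38) for 53360.

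Counts were rounded to whole numbers and genes filtered with filterByExpr, scaled by upper quartiles and tested with edgeR 4.0.16 (glmQLFit, glmQLFTest, R 4.3.3, Benjamini-Hochberg over all 15645 genes), 3 EMT6-PTR against 3 EMT6-P. log2 CPM used a prior count of 2. Alternatives were TMM scaling, DESeq2 1.42.0, limma-voom 3.58.1, other filters, the metastasis as a group of its own, a replicate block, each tumor left out, and, added after the data were seen, per-library lowess offsets on transcript length (84.3% of tested genes had one). The fits were tested first on simulated counts, with 200 genes changed and the same dispersion in both groups. At a dispersion of 0.03, false calls numbered 5 in edgeR, 8 in limma-voom and 13 in DESeq2. At 0.14 they numbered 2, 1 and 19. The changed genes differed by 2 log2 units, and 100% of them were recovered at 0.03 by each tool. At 0.14, edgeR recovered 74%, limma-voom 66.5% and DESeq2 84.5%. The fitted log2 fold changes of the members ran from −0.63 to 0.34, and changes of that size were not simulated. In the data the common dispersions were unlike, 0.0266 (EMT6-P) and 0.247 (EMT6-PTR), a setting that was not simulated. Near-identical genes had at least 95% identity over at least 150 bases. Exons of 14 members overlapped those of another gene.

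The members and lists were chosen with earlier results of these data known. Genes with per-tumor values were Hspa5, Hsp90b1, Serpinh1, Xbp1, Atf4, Atf6, Ddit3, Ern1 and Eif2ak3, in each role the 3 smallest unadjusted p and the 2 widest fold changes, in each further list the 2 smallest p, and the 4 highest and 4 lowest members in the metastasis. Other members are given where a sentence is about their complex; Dad1, Ost4, Tmed10, Asns and Col1a1 were added after their values were seen. Macrophage markers summed to 1503 to 1865 CPM in the primary tumors and to 2061 CPM in the metastasis, where Cd14 gave 717 CPM. Of these 8 markers, 6 lay below all EMT6-P tumors in the metastasis and 1 above. T cell markers summed to 5.05 to 18.3 CPM in the primary tumors and to 33.8 CPM in the metastasis. Adipocyte markers summed to 9.81 to 30.2 CPM over the 7 libraries. Skeletal muscle markers summed to 3540 CPM in EMT6-PTR 1 and to 2.00 to 583 CPM in the other libraries.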

Additional observations from a re-analysis of the deposited data

How the results depend on the processing

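No member was called by edgeR or limma-voom under any alternative; DESeq2 called 1 member and 5 genes of the other lists. Where no single tumor was left out, 10 summary values changed beyond the tolerance (for counts a factor of 1.5, for medians the replicate spread), 2 fold changes turned and Sec11c became called. The other 147 summary and 149 single-gene values stayed within it, though counts shifted, as for lower genes of the other lists from 12 to 9 with a replicate block. With the length trend removed, 2 members and 4 genes of the other lists were lower and 1 gene higher at an unadjusted p under 0.05, the translocon median was −0.073, and the log2 fold changes of Xbp1 and Ern1 turned to 0.028 and 0.0084. The translocon library median was −0.26 in EMT6-PTR 2 with DESeq2 size factors, −0.28 in EMT6-PTR 3 with TMM scaling and −0.23 in the metastasis with either. Leaving out single tumors gave 5 to 12 lower members at an unadjusted p under 0.05, 7 to 26 lower and 0 to 6 higher genes of the other lists, and translocon medians of −0.35 to −0.26. Non-overlapping members then numbered 13 to 21 lower and 0 to 2 higher, partly because fewer samples overlap less, and the metastasis was at least 2-fold lower for 0 to 7 members and higher for 0 to 1. Log2 fold changes then ran from −0.41 to 0.12 for Hsp90b1, −0.50 to 0.013 for Serpinh1, −0.28 to 0.14 for Atf6, −0.67 to 0.15 for Ern1, −0.046 to 0.11 for Eif2ak3 and −0.30 to 0.0079 for Creb3l1. The positive values of the first 4 were without EMT6-PTR 3; Atf6 was also at 0.06 without EMT6-P 2, Creb3l1 turned without EMT6-P 3, and Eif2ak3 turned without EMT6-P 1 (−0.046) or EMT6-PTR 1 (−0.039). The cause of these changes was not tested. Without a filter on low counts the median of all genes was 0.095, against 0.025 in the reported fit. Tumors with the same replicate number correlated in their deviations at 0.26, 0.25 and 0.04, and tumors of unlike number at −0.29 to 0.10. For replicates 1 and 2 the tumor of the same number had the highest correlation, while EMT6-PTR 3 correlated better with EMT6-P 2 (0.08). The labels state no pairing, so the numbers were not taken to pair tumors. With a replicate block 8 members had an unadjusted p under 0.05, all lower, 0 were called and the member median was −0.24.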
